A study of Mus musculus with 30 samples.

Results

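Among the 30 RNA-seq libraries of the series, 6 hold helper T cells that had not switched on their IL-10 reporter and came from either of 2 cytokine cultures. They are 3 libraries of Tr1 cells, grown with interleukin 27 (IL-27), and 3 libraries of non-pathogenic Th17 cells, grown with transforming growth factor beta 1 (TGF-beta 1) and interleukin 6 (IL-6). They were chosen by their titles, which give the culture, a replicate number (16, 17 and 18 for Tr1; 10, 11 and 12 for Th17) and the IL-10 negative compartment; pathogenic Th17 libraries were not taken. All cells came from C57BL/6 mice that carry a Foxp3-GFP reporter and an IL-10 Thy1.1 reporter. Naive, GFP negative CD4 T cells were activated with soluble anti-CD3 at 2.5 ug/ml. Irradiated splenocytes from which CD4 cells had been removed served as feeders, 6 for each T cell. The Tr1 culture received IL-27 at 25 ng/ml, and the Th17 culture received TGF-beta 1 at 2 ng/ml with IL-6 at 25 ng/ml. At 72 hours, living CD4 positive cells with TCR-beta and without GFP were sorted by Thy1.1, and 2000 cells were lysed per library. The labels give no untreated culture, so each difference below is between both cytokine conditions and not from an unstimulated state. Nor do they say whether replicates came from different cultures or animals, so each p-value here rests on a library-to-library spread that may be technical. In bulk RNA, fewer cells of a type and less RNA per cell cannot be told apart.

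IL-27 is a cytokine of the IL-12 family that binds the receptor chains IL-27RA and gp130 and activates STAT proteins, transcription factors that carry the signal to the nucleus. It induces interferon regulatory factors, guanylate binding proteins and antigen presentation genes, which interferon gamma induces as well. IL-6 also signals through gp130, mainly to STAT3, and together with TGF-beta it drives the differentiation of Th17 cells, which make IL-17. Tr1 cells are Foxp3 negative regulatory T cells known for IL-10. What the cells of both cultures that do not yet report IL-10 carry is the question this comparison addresses.

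The 6 libraries held 5084709 to 7800849 expected counts each (4394704 to 11850597 in the whole series). Replicates correlated at 0.9777 to 0.981 across genes (log CPM, where CPM, the usual depth-scaled unit, uses the library total scaled by TMM) and the groups with each other at 0.9267 to 0.9357. The ribosomal RNA precursor Rn45s took 20.3% to 25.06% of counts in Tr1 and 17.3% to 19.83% in Th17; Tr1 replicate 18 was the deepest library and had the highest share. The defining genes of CD4 T cells were abundant in all 6 libraries, Cd3d at 893 to 983 CPM in Tr1 and 661 to 765 CPM in Th17, and Cd4 at 611 to 723 and 535 to 620 CPM. Summed B cell markers stood at 8.93 to 11.5 CPM in Tr1 and 8.52 to 12.8 CPM in Th17, and dendritic cell markers at 1.02 to 2.42 and 0.655 to 1.86 CPM. The summed myeloid list stood at 188 to 217 and 194 to 205 CPM, nearly all of it Ctss, a protease gene that T cells also express, while Lyz2, Csf1r and Tyrobp were at or below 0.379 CPM in each library. Of 9 myeloid markers tested 1 was called, Fcgr3, an Fc receptor gene that NK cells also express, at 7.92, 8.90 and 10.1 CPM in Tr1 and 2.95, 2.13 and 2.01 CPM in Th17 (1.93 ± 0.30; edgeR, adjusted p = 1.29e-06); its part in the results below was not tested. Of 12611 genes tested with edgeR (quasi-likelihood test, p-values adjusted by Benjamini-Hochberg), 4967 (39.4%) were called at an adjusted p below 0.05, 2269 (18%) higher and 2698 (21.4%) lower in Tr1. At least 2-fold differences made up 720 and 909 of these. The values of the 3 Tr1 and the 3 Th17 libraries did not overlap for 5702 genes (45.2%), and the median log2 fold change over all genes was -0.04. The 18%, 21.4% and 45.2% of all genes are the shares to set beside the list counts below. Fold changes below are log2 of Tr1 over Th17 with their standard error (SE), and adjusted p-values are from edgeR.

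**Figure D1:**
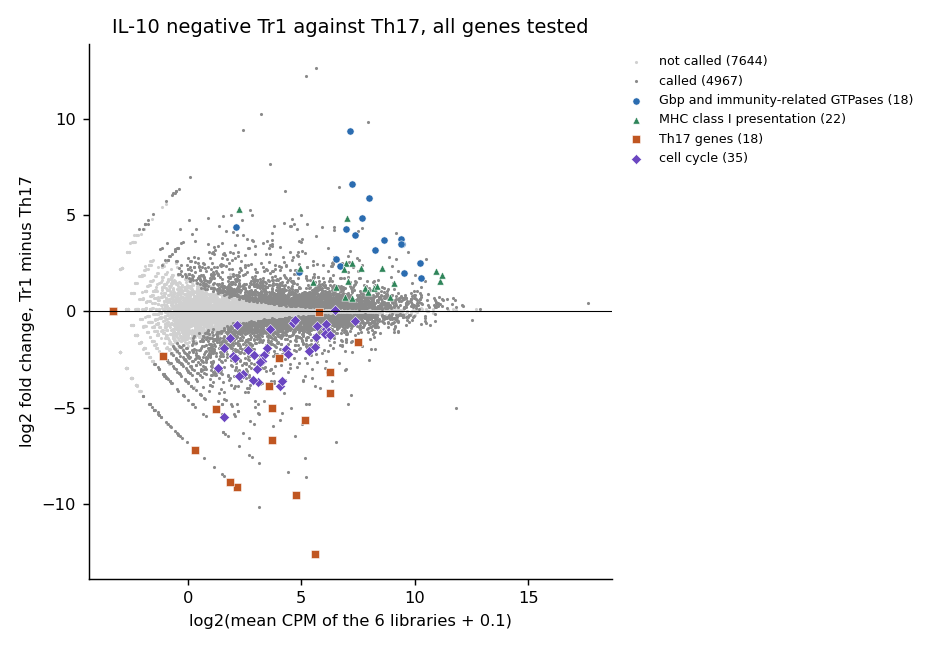
Each point is 1 of the 12611 genes tested. The x axis is log2 of the mean CPM of the 6 libraries plus 0.1, the y axis the fitted log2 fold change of Tr1 over Th17 in IL-10 negative cells; dark points were called by edgeR, and 4 gene lists are coloured. All 18 guanylate binding protein and immunity-related GTPase genes and all 22 MHC class I presentation genes lie above 0, while 34 of 35 cell cycle genes and 14 of 18 Th17 genes are called below 0; fitted values of genes with a group at 0 are no bound.

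The sort was checked first on the reporter's own genes. Il10 stood at 0, 0.568 and 0.854 CPM in Tr1 replicates 16, 17 and 18 and at 0.983, 0.760 and 3.25 CPM in Th17 replicates 10, 11 and 12. Il10 was thus low in both groups, with overlapping values and 1 Th17 library, replicate 12, above the other 5. Il10 was called lower in Tr1 (-1.65 ± 0.59; edgeR, adjusted p = 0.0228), but the call ended without Th17 replicate 12 (-0.72; edgeR, adjusted p = 0.441) or without Tr1 replicate 16 (-1.18; edgeR, adjusted p = 0.114), and without Tr1 replicate 18 the value was -2.45. Thy1, whose allele serves as the reporter and which T cells also express, stood at 97.3, 93.3 and 106 CPM in Tr1 and at 66.7, 71.2 and 65.9 CPM in Th17 (0.54 ± 0.08; edgeR, adjusted p = 2.15e-07). Foxp3, the regulator of regulatory T cells whose reporter was gated out, was low in each library, at 0.854 to 2.27 CPM in Tr1 and 1.67 to 2.95 CPM in Th17, and was not called (-0.79 ± 0.49; edgeR, adjusted p = 0.216).

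IL-10 negative Tr1 cells carried more of most listed interferon regulatory factors than Th17 cells, whereas Stat3 differed little. Stat3, which both IL-27 and IL-6 activate, stood at 376, 406 and 425 CPM in Tr1 and 496, 460 and 511 CPM in Th17, a small deficit in Tr1 (-0.28 ± 0.07; edgeR, adjusted p = 6.18e-04). Stat4, which carries the IL-12 signal, and Stat2, which acts in the type I interferon response, were higher in Tr1 by 1.19 ± 0.07 and 1.05 ± 0.09. In all, 6 of 22 STAT, JAK and SOCS genes were higher and 9 lower, with a median of -0.03. The strongest on the lower side were feedback inhibitors induced by STAT5: Socs2 at 1.62, 0.757 and 0.996 CPM in Tr1 and 64.7, 68.1 and 59.6 CPM in Th17 (-5.84 ± 0.18), and Cish (-3.55 ± 0.16). All 3 Th17 libraries thus held Socs2 at more than any Tr1 library.

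Of the 10 tested genes of the Irf list, 7 were higher in Tr1 and 1 was lower, against 18% and 21.4% of all genes, with a median of 0.61. The 7 include Irf2bp2 (0.37 ± 0.14), a binding partner of Irf2 and not itself such a factor. They also include Irf5 (0.98 ± 0.34), whose call ended without Th17 replicate 11 (0.70) or without Tr1 replicate 17 (0.67). Irf1 (chr11:53770014-53778374 of mm10), an early factor of the interferon response, stood at 814, 809 and 925 CPM in Tr1 and 161, 145 and 195 CPM in Th17 (2.35 ± 0.08; edgeR, adjusted p = 3.09e-25). Irf8 and Irf7, factors of the interferon response, followed at 1.73 ± 0.09 and 1.62 ± 0.13. The member on the lower side was Irf4, a T cell receptor induced factor that Th17 cells need, at 73.1, 92.6 and 106 CPM in Tr1 and 281, 259 and 277 CPM in Th17 (-1.58 ± 0.08; edgeR, adjusted p = 1.61e-19).

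Guanylate binding proteins (Gbp) and immunity-related GTPases, enzymes that attack vacuoles of intracellular microbes, were higher in Tr1 in all 18 genes tested, against 18% of all genes. The libraries did not overlap in any of the 18, against 45.2% of all genes. Their median log2 fold change was 3.61. Gbp6 (chr5:105270702-105295871) stood at 467, 486 and 518 CPM in Tr1 and 6.39, 6.99 and 11.1 CPM in Th17 (5.90 ± 0.14; edgeR, adjusted p = 6.21e-30). Iigp1, an immunity-related GTPase, stood at 286, 314 and 304 CPM in Tr1 and 1.97, 2.58 and 4.64 CPM in Th17 (6.61 ± 0.17). Gbp6 and Iigp1 were thus low but present in Th17 libraries and abundant in Tr1 libraries. Gbp9 was higher by 4.85 ± 0.14, and Gbp10 stood at 270 to 299 CPM in Tr1 and at or below 0.619 CPM in Th17 (9.36 ± 0.30). Gbp11 was higher by 4.39 ± 0.40, or 4.98 without Th17 replicate 12. The smallest difference of the list was that of Gbp2 (1.74). Gbp6 and Gbp10, and Tgtp1 and Tgtp2, are near-identical pairs between which RSEM splits reads by an estimate, so the share of each is uncertain.

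The proximal promoters of these genes are shown because the genes moved together and motifs of interferon-responsive promoters are known. The 250 bases upstream of each start site (RefSeq, GRCm38.p6) were searched on both strands for the core of the interferon-stimulated response element (ISRE, GAAANNGAAA) and for the gamma-activated site (GAS, TTCNNNGAA); both motifs overlapped in 18 promoters. The ISRE core was in 9 of the 10 Gbp and immunity-related GTPase promoters available and the GAS in 6 of the 10. The matched stretches of Igtp and Irgm2 are nearly the same, as are those of Tgtp1 and Tgtp2. These promoters are therefore not independent of each other in the counts. The stretches below run 5′ to 3′ on the gene's strand, with ISRE cores and GAS matches in capitals, and were picked after the values of the genes were seen.
Gbp7, chr3:142530200-142530322, plus strand: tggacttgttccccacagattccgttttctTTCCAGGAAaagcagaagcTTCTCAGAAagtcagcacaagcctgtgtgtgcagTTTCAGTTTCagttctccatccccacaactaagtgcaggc
Igtp, chr11:58199481-58199555, plus strand: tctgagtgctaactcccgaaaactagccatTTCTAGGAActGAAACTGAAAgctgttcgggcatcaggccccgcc
Tgtp1, chr11:48992284-48992364, minus strand: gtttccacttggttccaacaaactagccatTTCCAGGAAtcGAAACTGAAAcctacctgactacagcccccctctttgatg
Irgm1, chr11:48871421-48871480, minus strand: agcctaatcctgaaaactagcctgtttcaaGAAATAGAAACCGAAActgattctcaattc
Irf1, chr11:53769894-53769962, plus strand: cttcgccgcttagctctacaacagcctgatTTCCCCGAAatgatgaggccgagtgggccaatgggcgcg
Ifit3, chr19:34583343-34583446, plus strand: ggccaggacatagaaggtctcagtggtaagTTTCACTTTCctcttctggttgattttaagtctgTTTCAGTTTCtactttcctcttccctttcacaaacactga
B2m, chr2:122147518-122147587, plus strand: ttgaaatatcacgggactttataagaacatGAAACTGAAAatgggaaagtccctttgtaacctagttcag

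Gbp7 (log2 fold change 3.95) holds 2 GAS matches and 1 ISRE core, while Igtp (3.52) and Tgtp1 (3.74) have 1 GAS followed closely by 1 ISRE core. Irgm1 (3.17) has 2 overlapping ISRE cores, and Irf1 (2.35) has 1 GAS without an ISRE core. Ifit3 (3.41), an interferon-induced RNA-binding protein, has 2 ISRE cores, and B2m (1.91), the light chain of MHC class I, has 1. Among all 27025 genes with a promoter in the table, 3.46% held the ISRE core and 8.13% the GAS. Among genes higher in Tr1 by at least 2-fold the shares were 10.5% (53 of 507) and 11.6%, and among genes lower by at least 2-fold 2.80% (19 of 678) and 6.78%. A match is a run of letters and no measured binding site. Of 25174 promoters checked, 68.6% had the bases after the start site in a transcript of their gene. The start sites of the rest had no such support.

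Interferon-stimulated genes, the antiviral set, were higher in Tr1 in 28 of 33 genes tested and lower in 0, with a median of 1.51. Their promoters held the ISRE core in 9 of 26 (34.6%). Usp18, which restrains the type I interferon receptor, stood at 52.4, 51.1 and 61.2 CPM in Tr1 and 4.42, 3.80 and 4.80 CPM in Th17 (3.66 ± 0.15; edgeR, adjusted p = 3.13e-22). Cmpk2, a mitochondrial kinase gene next to Rsad2, followed at 3.49 ± 0.22, Ifit3 at 3.41 ± 0.35, Ifit1 at 2.51 ± 0.27 and Rtp4, a chaperone of receptors, at 2.30 ± 0.28. Ifit3 was a modest transcript even in Tr1, at 16.2, 14.01 and 11.95 CPM, against 0.983, 1.37 and 1.55 CPM in Th17. On the length-scaled TPM scale these levels in Tr1 ran over a wide range: Gbp6 averaged 217 TPM, where Usp18 averaged 61.7 and Ifit3 14.02 TPM.

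MHC class I presentation, by which cells show peptides to CD8 T cells, was higher in Tr1 in all 22 genes tested, with a median of 1.58. Libraries did not overlap in 21 of them, against 45.2% of all genes. The nonclassical heavy chain gene H2-Q7 stood at 251, 226 and 267 CPM in Tr1 and 13.3, 5.47 and 7.12 CPM in Th17 (4.86 ± 0.19; edgeR, adjusted p = 9.29e-23). H2-T22, H2-T10 and H2-T24 were higher by 2.53 ± 0.17, 2.51 ± 0.10 and 2.28 ± 0.15. H2-Q6 was uneven, at 0, 19.7 and 7.26 CPM in Tr1 and at or below 0.304 CPM in Th17; its call (5.33 ± 1.52; edgeR, adjusted p = 0.0045) ended without Tr1 replicate 17 (4.16). H2-Q6 and H2-Q7 are near-identical, and so are H2-T10 and H2-T22, so that the split of reads within each pair is uncertain. The ISRE core was in 3 of 17 promoters of this list (17.6%).

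**Figure D2:**
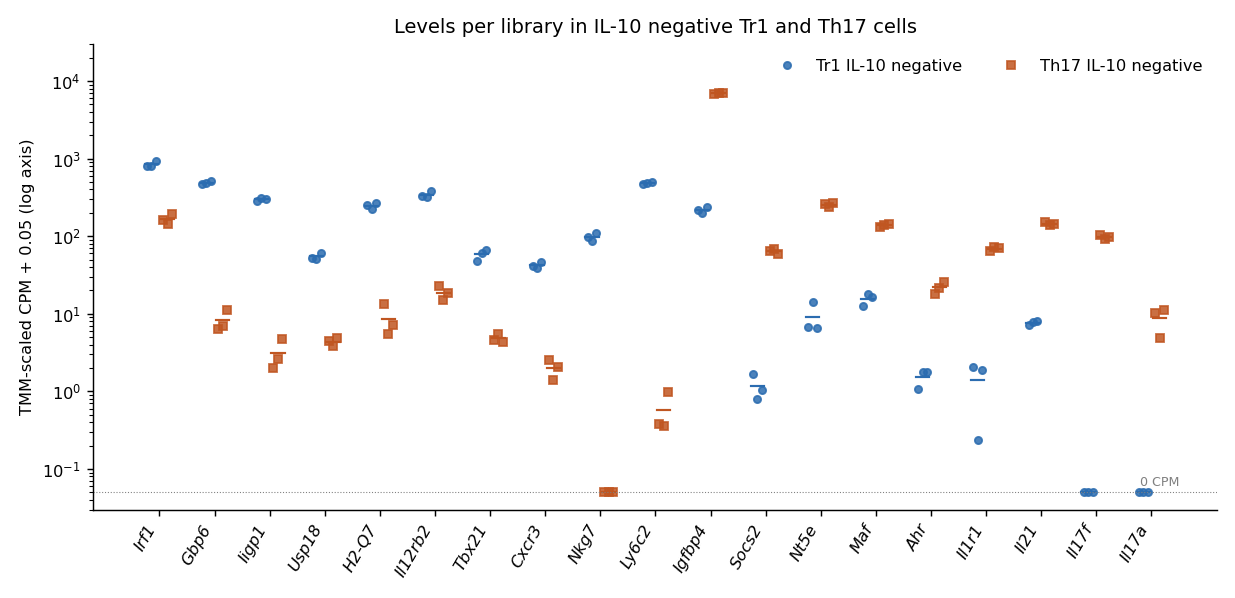
TMM-scaled CPM plus 0.05 on a log axis for 19 genes, with 1 point per library (circles Tr1, squares Th17) and a short line at each group mean; the dotted line marks 0 CPM. For Irf1 the Tr1 libraries lie between 809 and 925 CPM and the Th17 libraries between 145 and 195, Igfbp4 is the highest gene in Th17 at 6768 to 7054 CPM, Nkg7 is at 0 in each Th17 library, and Il17f and Il17a are at 0 in each Tr1 library.

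Most listed genes of the Th1 programme were higher in Tr1 than in Th17 cells, although Tr1 cells held almost no Ifng. Of 14 Th1 genes tested, 10 were higher and 3 lower, with a median of 2.45. Tbx21 (chr11:97098007-97115331), which encodes T-bet, the master regulator of Th1 cells, stood at 48.3, 60.6 and 65.7 CPM in Tr1 and 4.59, 5.47 and 4.33 CPM in Th17 (3.60 ± 0.20; edgeR, adjusted p = 2.74e-18). Il12rb2, the inducible chain of the IL-12 receptor, stood at 328, 322 and 378 CPM in Tr1 and 22.8, 14.9 and 18.4 CPM in Th17 (4.20 ± 0.10). Cxcr3, the chemokine receptor that brings Th1 cells to inflamed tissue, stood at 41.4, 39.2 and 46.8 CPM in Tr1 and 2.46, 1.37 and 2.01 CPM in Th17 (4.45 ± 0.18). For each of these receptors and for Tbx21 the lowest Tr1 library was several times the highest Th17 library. Ifng was at 1.42, 1.70 and 0.854 CPM in Tr1 and at 0 in the 3 Th17 libraries, at least 8.15-fold higher in Tr1 when the 3 libraries at 0 are given 3 counts between them, a limit for counting error only. Ccl5, a chemokine of effector cells, was at 12.99, 12.3 and 15.4 CPM in Tr1 and 0, 0.456 and 0.774 CPM in Th17 (4.98 ± 0.38, or 5.76 without Th17 replicate 12). On the lower side stood Il18r1, the IL-18 receptor, with 11.4, 15.5 and 16.8 CPM in Tr1 and 63.6, 75.6 and 74.4 CPM in Th17 (-2.27 ± 0.11). Without Tr1 replicate 18 the list had 1 lower member in place of 3.

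Among 27 cytokine receptor genes, 9 were higher and 15 lower in Tr1, with a median of -0.37. After Il23r, below, and Il1r1, the receptor for IL-1, the lower ones of at least 5 CPM were led by Ifngr2, a chain of the interferon gamma receptor, at 6.70, 6.25 and 6.26 CPM in Tr1 and 64.4, 66.9 and 62.5 CPM in Th17 (-3.34 ± 0.11; edgeR, adjusted p = 6.41e-25). Il1r1 stood at 2.03, 0.189 and 1.85 CPM in Tr1 and 64.2, 72.5 and 71.2 CPM in Th17 (-5.62 ± 0.25). Il2ra, the alpha chain of the IL-2 receptor and an activation marker, stood at 13.4 to 14.96 CPM in Tr1 and 84.8 to 94.4 CPM in Th17 (-2.63 ± 0.09). The ranges of these 3 receptors lay well apart. Il27ra, the receptor for the cytokine of the Tr1 culture, and Il6ra, which binds IL-6, were lower in Tr1 by log2 fold changes of -0.57 and -1.10, named after their values were seen. Among the 9 higher was Ifngr1, the other chain of the interferon gamma receptor, so the chains went opposite ways. Ifngr1 averaged 1636 CPM in Tr1 and 443 CPM in Th17 (1.885 ± 0.053). Il10ra, a chain of the IL-10 receptor, was also higher, averaging 144.7 and 24.29 CPM (2.577 ± 0.096).

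Of 14 cytotoxic genes tested, 9 were higher and 1 lower, with a median of 1.55. Nkg7 (chr7:43437138-43438246), a granule membrane protein of killer cells, stood at 98.7, 87.1 and 110 CPM in Tr1 and at 0 in the 3 Th17 libraries, at least 636-fold higher. Prf1, the pore-forming protein perforin, was present in both, at 18.1, 22.1 and 23.05 CPM in Tr1 and 11.5, 11.7 and 10.8 CPM in Th17 (0.91 ± 0.13; edgeR, adjusted p = 4.66e-07). Gzmb, the protease granzyme B, was at 1.33 to 2.99 CPM in Tr1 and at 2 counts in all in Th17, a ratio of 22.2 with a 95% counting interval of 5.76 to 190. Serpinb6b, an inhibitor of granule proteases, and Gzma, another granzyme, were higher by 2.80 ± 0.17 and 1.79 ± 0.36. So Nkg7 separated both groups fully, while perforin and granzyme transcripts were at low levels. One NK cell marker and 1 CD8 T cell marker moved with these genes: Klrk1, which activated T cells can express, was at 4.84 to 5.28 CPM in Tr1 and 0.304 to 0.983 CPM in Th17, and Cd8b1 at 18.9 to 25.8 and 6.65 to 9.43 CPM. Klrk1 and Cd8b1 were called, 1 of 2 tested in each list; the summed NK list ran from 5.41 to 5.89 CPM in Tr1 and 1.06 to 1.24 in Th17, the summed CD8 list from 23.7 to 27.3 and 9.44 to 12.6. Both sums were mostly the called gene: Cd8a had 55 counts in all in Tr1 and 48 in Th17, with overlapping libraries and no call, and Klrb1c had 8 and 6 counts. Klra4 and Klra8, receptors of NK cells, were at 0 in each of the 6 libraries, and Ncr1 was at or below 0.406 CPM. The part of CD8 T cells in these results was not tested.

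The Ly6 and Ms4a surface proteins, interferon-responsive in several cell types, were higher in Tr1 in 9 of 10 genes and lower in 0, with a median of 1.37. Ly6c2 stood at 475, 484 and 493 CPM in Tr1 and 0.328, 0.304 and 0.928 CPM in Th17, so that Th17 cells had nearly none (9.81 ± 0.16, or 10.51 without Th17 replicate 12; edgeR, adjusted p = 2.13e-34). Ly6c1, its close paralog, stood at 934 to 1096 CPM in Tr1 and 133 to 167 CPM in Th17 (2.73 ± 0.09), and how reads were shared between the pair is uncertain. Ms4a4c was higher by 4.37 ± 0.16, Ly6e by 1.49 ± 0.06 and Ms4a4b, a T cell surface protein, by 1.26 ± 0.07.

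**Figure D3:**
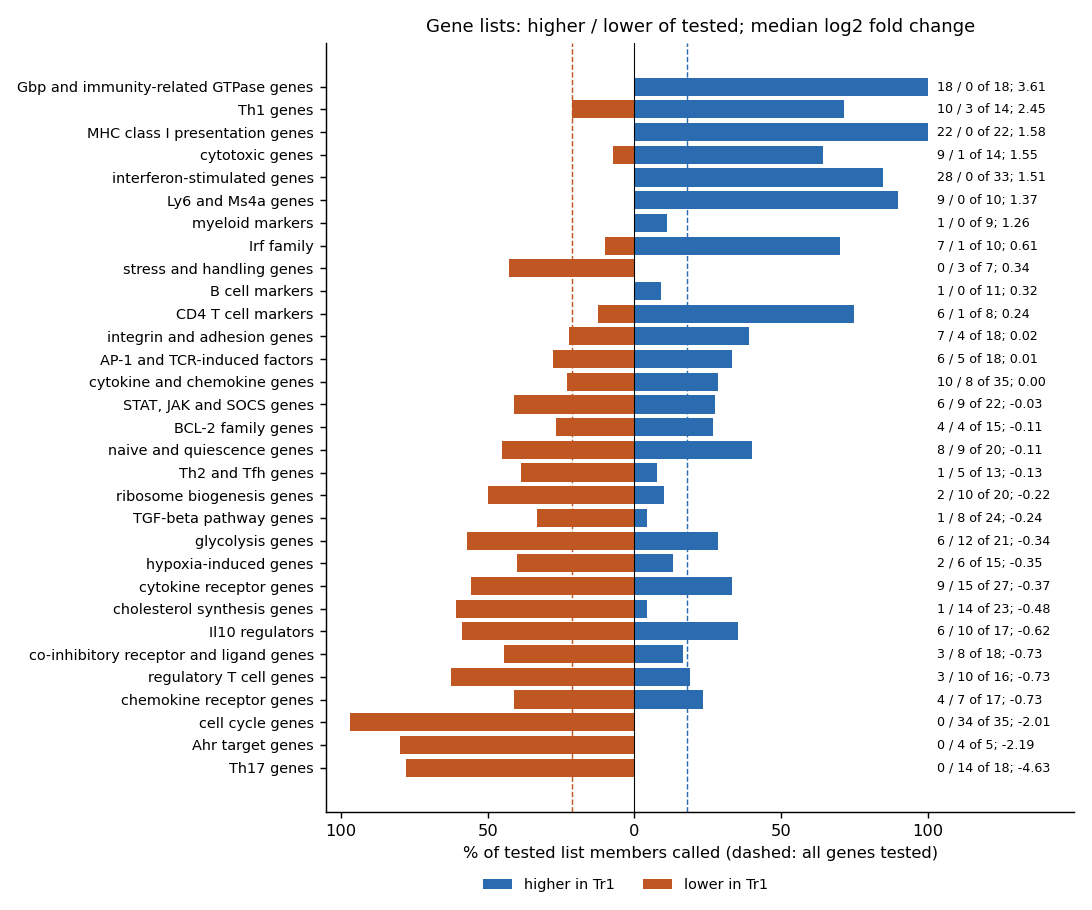
For the 31 gene lists with at least 5 members tested, bars give the percentage of tested members called higher (right) and lower (left) in Tr1; dashed lines mark the 18% and 21.4% of all genes, and the text gives counts and the median log2 fold change. The Gbp and MHC class I lists reach 100% on the higher side, and the cell cycle list reaches 97.1% on the lower side.

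Th17 genes were lower in Tr1 in 14 of 18 tested and higher in 0, against 21.4% of all genes lower. Of the 4 not called, Il22 and Il24 averaged 0 CPM in both groups, and Ccr6 averaged 0.095 CPM in Tr1 and 0.63 CPM in Th17. Batf was well expressed and alike in both, averaging 54.1 CPM in Tr1 and 55.2 CPM in Th17 (-0.02 ± 0.10). The median was -4.63 as fitted and -4.05 with genes at 0 set to their bound. Il17f (chr1:20777146-20785274) was at 0 in the 3 Tr1 libraries and at 104, 92.6 and 97.8 CPM in Th17, at least 563-fold lower in Tr1. Il17a, also at 0 in Tr1, stood at 10.3, 4.86 and 11.1 CPM in Th17 (at least 50.1-fold lower), and Il23r, the receptor for IL-23, at 8.52, 4.86 and 8.04 CPM (at least 40.8-fold lower). The IL-10 negative Th17 cells thus held IL-17 transcripts, and no IL-17 transcript of either gene was counted in Tr1 cells. Rora, a nuclear receptor gene that supports Th17 cells, was present in both, at 5.89, 3.60 and 5.98 CPM in Tr1 and 32.9, 24.02 and 25.4 CPM in Th17 (-2.39 ± 0.20). Il21, a cytokine that Th17 cells use to sustain themselves, stood at 7.11, 7.76 and 7.97 CPM in Tr1 and 152, 140 and 143 CPM in Th17 (-4.24 ± 0.12; edgeR, adjusted p = 4.65e-27). Tmem176a, a membrane protein gene of Th17 cells, was at or below 0.285 CPM in Tr1 and at 24.02 to 27.4 CPM in Th17 (-6.68 ± 0.36).

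Ahr, the aryl hydrocarbon receptor, a ligand-sensing factor that works with Maf on Il10 and is known for IL-22 in Th17 cells, stood at 1.02, 1.70 and 1.71 CPM in Tr1 and 18.2, 21.7 and 25.8 CPM in Th17 (-3.85 ± 0.30; edgeR, adjusted p = 9.28e-14). Of 5 listed Ahr targets 4 were lower and 0 higher, with a median of -2.19. Cyp1a1, a detoxifying enzyme and the classical target, had 1 count in all in Tr1 and 20.6, 16.9 and 14.1 CPM in Th17, a ratio of 295 (95% counting interval 52.6 to 11698). Cyp1b1, a related enzyme, had 2 counts in Tr1 and 9.34 to 14.9 CPM in Th17, a ratio of 109 (29.8 to 905). The receptor and both enzymes therefore sat on the same side. Ahrr, the repressor that Ahr induces, and Tiparp were lower by -2.19 ± 0.27 and -1.01 ± 0.11.

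Factors known to regulate Il10 did not go one way. Of 17 tested, 6 were higher and 10 lower in Tr1, with a median of -0.62. Maf (chr8:115703253-115706894), the factor that drives Il10 in many helper T cells, stood at 12.4, 17.8 and 16.2 CPM in Tr1 and 133, 138 and 143 CPM in Th17 (-3.15 ± 0.12; edgeR, adjusted p = 9.59e-23). Prdm1, which encodes Blimp-1 and also promotes Il10, was low in both but higher in Tr1, at 4.87, 3.60 and 2.85 CPM against 0.491, 1.98 and 0.464 CPM (1.87 ± 0.46, or 2.90 without Th17 replicate 11; edgeR, adjusted p = 9.94e-04). Gata3, the Th2 regulator, stood at 67.4, 62.5 and 71.8 CPM in Tr1 and 113, 114 and 119 CPM in Th17 (-0.78 ± 0.09). The cells without IL-10 thus carried different sets of these factors: Tbx21 and Prdm1 were higher in Tr1, and Maf, Ahr, Rora, Irf4, Il21 and Gata3 were higher in Th17.

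Of 24 TGF-beta pathway genes, 1 was higher and 8 lower in Tr1, with a median of -0.24. The lower ones included inhibitors that TGF-beta itself induces: Skil, at 46.9, 46 and 47.2 CPM in Tr1 and 175, 196 and 218 CPM in Th17 (-2.07 ± 0.11; edgeR, adjusted p = 5.21e-19), its relative Ski (-1.49 ± 0.10), and Pmepa1 (-1.65 ± 0.18). Tgfb3, a TGF-beta ligand, stood at 3.05, 3.60 and 3.70 CPM in Tr1 and 22.8, 24.3 and 26.6 CPM in Th17 (-2.82 ± 0.24). Furin, the protease that matures TGF-beta precursors, was lower by -1.48 ± 0.09. Lrrc32, which holds latent TGF-beta at the cell surface, averaged 0.463 CPM in Tr1 and 2.89 CPM in Th17 (-2.43 ± 0.53). In contrast, Smad2, Smad3 and Smad4, the signal carriers, had log2 fold changes of -0.09, -0.04 and 0.19 and were not called; Lrrc32 and the Smad genes were singled out after their values were seen.

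Of 16 genes of regulatory T cells, 10 were lower and 3 higher, with a median of -0.73. Nt5e, which encodes CD73, an ectoenzyme that makes adenosine, stood at 6.70, 14.2 and 6.54 CPM in Tr1 and 258, 237 and 268 CPM in Th17 (-4.82 ± 0.15; edgeR, adjusted p = 9.54e-26). Capg, an actin capping protein, stood at 10.2, 11.7 and 17.9 CPM in Tr1 and 311, 261 and 266 CPM in Th17 (-4.35 ± 0.12). Gpr83, a receptor of TGF-beta induced and natural regulatory T cells, stood at 15.6, 16.3 and 14.7 CPM in Tr1 and 122, 111 and 116 CPM in Th17 (-2.91 ± 0.14). Th17 libraries thus held each of these genes well above the Tr1 libraries while Foxp3 was low in both. Ikzf2, which encodes Helios, went the other way at 8.32, 11.2 and 8.68 CPM in Tr1 against 2.46, 0.608 and 2.17 CPM (2.43 ± 0.36). Of 18 co-inhibitory receptor and ligand genes, 3 were higher and 8 lower. Cd274, the ligand PD-L1, stood at 82.8, 84.6 and 93.3 CPM in Tr1 and 12.8, 15.5 and 19.2 CPM in Th17 (2.46 ± 0.13), whereas its receptor gene Pdcd1 (PD-1) stood at 4.87, 4.54 and 3.70 CPM in Tr1 and 36.2, 38.5 and 40.8 CPM in Th17 (-3.16 ± 0.15). Ligand and receptor were thus on opposite sides. Tigit was higher by 1.53 ± 0.19 and Cd200r1, an inhibitory receptor, lower by -2.91 ± 0.19.

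Proliferation genes were lower in Tr1. Of 35 cell cycle genes, 34 were lower in Tr1 and 0 higher, with a median of -2.01 and no overlap of libraries in 34. Of all genes 21.4% were lower and 45.2% had no overlap. Ccna2, the cyclin of S phase and entry into mitosis, stood at 2.23, 2.27 and 1.99 CPM in Tr1 and 35.6, 27.5 and 30.5 CPM in Th17 (-3.85 ± 0.17; edgeR, adjusted p = 1.78e-21). Ccnb2, a mitotic cyclin, stood at 2.03, 0.568 and 1.14 CPM in Tr1 and 17.7, 14.9 and 14.4 CPM in Th17 (-3.66 ± 0.24). Bub1, a checkpoint kinase, had 2 counts in all in Tr1 and 3.60 to 8.06 CPM in Th17, a ratio of 49.96 (95% counting interval 13.5 to 418). Uhrf1, which copies DNA methylation in S phase, was lower by -3.61 ± 0.22, or -4.36 without Tr1 replicate 17. Tyms, an enzyme of thymidine synthesis, was the 1 member not called (0.07); it was called higher in Tr1 without Tr1 replicate 18.

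Metabolic genes differed less. Of 21 glycolysis genes, 12 were lower and 6 higher, with a median of -0.34. Pgam1, a glycolytic mutase, stood at 151, 168 and 184 CPM in Tr1 and 340, 289 and 306 CPM in Th17 (-0.89 ± 0.07), and Slc16a3, a lactate exporter, was lower by -1.29 ± 0.10. Slc2a3, a glucose transporter, and Pdk1, which keeps pyruvate out of mitochondria, were higher by 1.52 ± 0.12 and 1.35 ± 0.06. Of 23 cholesterol synthesis genes, 14 were lower and 1 higher, with a median of -0.48. Sqle, a rate-controlling enzyme, was lower by -1.94 ± 0.15. The exception was Pmvk, a kinase of the same pathway (1.04 ± 0.15). Of 20 ribosome biogenesis genes, 10 were lower and 2 higher, with Rrp12 at -1.15 ± 0.18 and the nucleolar chaperone Npm1 at 0.56 ± 0.06. Hypoxia-induced genes split as 6 lower and 2 higher of 15 (40% and 13.3%, against 21.4% and 18% of all genes). The oxygen sensor Egln3 was at -2.10 ± 0.12 and the collagen hydroxylase P4ha1 at -1.60 ± 0.07. Of 7 stress and handling genes 3 were lower, among them the chaperone Hsph1 (-0.50 ± 0.09), and 0 higher.

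Naive and quiescence genes were split, 8 higher and 9 lower of 20, with a median of -0.11. The largest difference was in Igfbp4 (chr11:99040005-99052655), which encodes a binding protein of insulin-like growth factors and is a naive T cell transcript. Igfbp4 stood at 216, 201.6 and 240 CPM in Tr1 and 6768, 7036 and 7054 CPM in Th17 (-4.98 ± 0.09; edgeR, adjusted p = 4.66e-33), and per length it averaged 7864 TPM in Th17. Txnip, a thioredoxin inhibitor of resting cells, was higher by 1.28 ± 0.06, and Satb1 and Foxo1, chromatin and transcription factors of resting T cells, were lower by -1.02 ± 0.05 and -0.76 ± 0.09. Activation-linked genes were split too. Of 18 AP-1 and T cell receptor induced factors, 6 were higher, with Jun at 426, 431 and 460 CPM in Tr1 and 152, 137 and 155 CPM in Th17 (1.57 ± 0.07), and 5 lower, with Nr4a1 at 161, 150 and 165 CPM and 337, 319 and 353 CPM (-1.08 ± 0.06). Integrin and adhesion genes split as 7 higher and 4 lower of 18, with the memory marker Cd44 at 1.37 ± 0.09. BCL-2 family genes split evenly, 4 higher and 4 lower of 15, with the survival genes Bcl2 and Bcl2l1 at -0.64 ± 0.08 and -0.91 ± 0.11 and the death inducer Bid at 1.36 ± 0.21. Over all genes 18% were higher and 21.4% lower, and the BCL-2 shares, 26.7% each, lay near these. The AP-1 shares were 33.3% and 27.8% and the integrin shares 38.9% and 22.2%.

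Receptors for homing showed a similar split. Of 17 chemokine receptor genes 4 were higher, led by Cxcr3, and 7 lower, with a median of -0.73. Gpr15, which guides T cells to the colon, was at 0 in the 3 Tr1 libraries and at 20.6, 15.5 and 16.4 CPM in Th17, at least 100-fold lower in Tr1. Ccr4, a receptor for skin and Th2 homing, stood at 1.02, 0.189 and 0.142 CPM in Tr1 and 22.3, 14.6 and 13.5 CPM in Th17 (-5.31 ± 0.35, or -6.56 without Tr1 replicate 16). Ccr8, another receptor of Th2 and regulatory cells, had 2 counts in all in Tr1 and 4.49 to 7.91 CPM in Th17, a ratio of 49.96 (13.5 to 418). These receptors were thus nearly silent in Tr1. Of 35 cytokine and chemokine genes, 10 were higher and 8 lower (28.6% and 22.9%, against 18% and 21.4% of all genes), with a median of 0.00. Of the 42 listed, 9 had no count in the 6 libraries, and a tested gene without counts enters the median as 0, so this median measures little. Cxcl10, a ligand of Cxcr3, stood at 4.26, 7.95 and 5.69 CPM in Tr1 and 0, 0.152 and 0.774 CPM in Th17 (4.19 ± 0.59, or 5.98 without Th17 replicate 12). Of 13 Th2 and follicular helper genes, 1 was higher, the adaptor Sh2d1a (1.17 ± 0.09), and 5 lower, with Tox2 at -3.79 ± 0.34.

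The largest differences over all genes with at least 10 CPM in the higher group and no overlap brought in genes outside the lists. On the Tr1 side Serpina3g, a protease inhibitor, stood at 28.0, 21.6 and 23.3 CPM against 2 counts in all in Th17, a ratio of 231 (95% counting interval 63.6 to 1914). Gpnmb, a glycoprotein of the cell surface and endosomes, stood at 59.5, 56.0 and 69.0 CPM against 1.80, 1.67 and 2.17 CPM (5.03 ± 0.17), Plac8 at 47.1, 35.2 and 58.2 CPM against 1.97, 1.82 and 1.24 CPM (4.81 ± 0.23), and Tm6sf1 at 35.7, 44.5 and 32.6 CPM against 0.819, 0.608 and 0 CPM (6.27 ± 0.31, or 6.86 without Th17 replicate 10). On the Th17 side Myo6, an actin motor, stood at 185, 189 and 175 CPM against 1.42, 2.46 and 1.28 CPM in Tr1 (-6.75 ± 0.19; edgeR, adjusted p = 4.38e-27). Rbpms2, an RNA-binding protein, stood at 89.8, 67.4 and 63.6 CPM against 3 counts in all in Tr1, a ratio of 421 (144 to 2043). Mgll, which breaks down monoglycerides and the endocannabinoid 2-AG, stood at 42.5 to 42.6 CPM in Th17 against 2 counts in Tr1, a ratio of 367 (101 to 3034). Atp6v0d2, a proton pump subunit, stood at 80.1, 71.6 and 62.8 CPM in Th17 and 0.203 to 0.568 CPM in Tr1 (-7.62 ± 0.32). Fst, which encodes follistatin, an activin antagonist, and Pid1 each had 1 count in all in Tr1 and stood at 12.3 to 13 and 12.5 to 15.8 CPM in Th17, ratios of 220 (39.1 to 8711) and 238 (42.3 to 9422).

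A difference between a pair of cultures does not say which of them stands out, so the levels were set beside the IL-10 negative libraries of the other cultures, Th1 (grown with IL-12), Th2 (IL-4) and pathogenic Th17 (IL-1 beta, IL-6 and IL-23, written pTh17). These levels are a description without a test. Of the 720 genes higher in Tr1 by at least 2-fold, Tr1 had the highest mean of the 5 in 408, Th17 the lowest in 388, and both held in 145. Of the 909 lower, Tr1 had the lowest mean in 622, Th17 the highest in 309, and both held in 109. All these genes were picked for a difference between Tr1 and Th17, so part of each count follows from that choice. The same ranks were not counted over all genes. In the Gbp and GTPase list Tr1 was highest in 15 and Th17 lowest in 13 of 18, and in the MHC class I list in 19 and 18 of 22. The members of both lists were all higher in Tr1 than in Th17, so the same limit holds. Tbx21 was different, since Tr1, at 48.3 to 65.7 CPM, overlapped pTh17 (64.1 to 75.0) and lay below Th2 (66.1 to 90.5) and Th1 (172 to 193). Th17 stood alone for Tbx21 at 4.33 to 5.47 CPM. Of the 14 Th1 genes, Tr1 had the highest mean of the 5 in 1 and Th17 the lowest in 8. Maf was highest in Th17 (133 to 143 CPM), above Th2 (36.5 to 42.8), pTh17 (25.4 to 30.8), Tr1 (12.4 to 17.8) and Th1 (7.89 to 11.9). Ccna2 was lowest in Tr1, at 1.99 to 2.27 CPM, with Th17 at 27.5 to 35.6, Th1 at 45.7 to 55.1, pTh17 at 155 to 174 and Th2 at 390 to 441 CPM. The cell cycle list as a whole had its lowest mean in Tr1 in 34 of 35 genes and its highest in Th17 in 0.

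**Figure D4:**
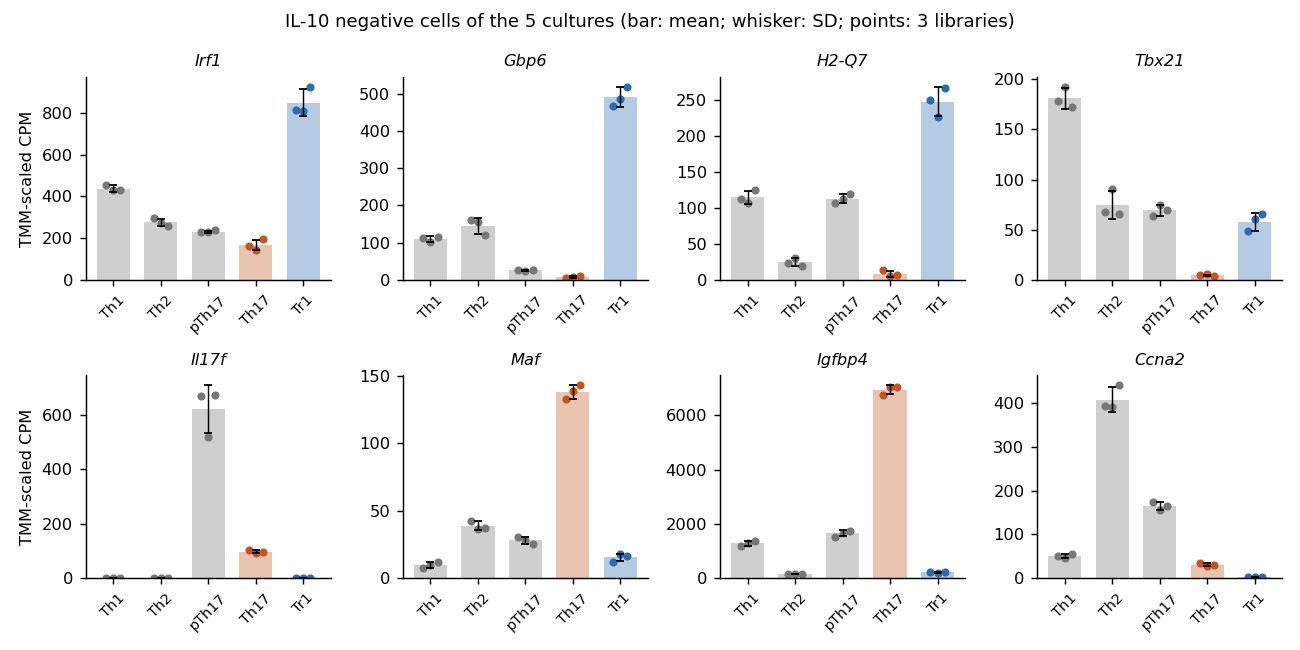
Bars give the mean TMM-scaled CPM of the IL-10 negative libraries of 5 cultures for 8 genes, whiskers the SD of 3 libraries and points the libraries; each panel has its own y axis from 0. Tr1 stands alone for Gbp6, Th17 stands lowest for Tbx21 at 4.33 to 5.47 CPM and highest for Maf and Igfbp4, and Il17f is higher in pTh17 (521 to 674 CPM) than in Th17 (92.6 to 104 CPM).

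Whether the cultures differ in the same way among cells that did report IL-10 was tested with an interaction, the culture difference in IL-10 negative cells minus that in IL-10 positive cells. The interaction was called for 4863 genes (38.6%), 2211 above and 2652 below 0; without the filter on low counts the excess turned, with 2615 above and 2348 below. Of the 720 genes higher in negative Tr1 by at least 2-fold, 607 were also called higher and 12 lower in positive Tr1. Of the 909 lower, 730 were also called lower and 49 higher. Calls were common among positive cells, where 8210 of all 12611 genes were called, 4194 higher and 4016 lower in Tr1. For some leading genes no change in the size of the difference was called. Il12rb2 differed by 4.20 in negative and 4.03 in positive cells, Cxcr3 by 4.45 and 4.29, Nt5e by -4.82 and -4.80 and Capg by -4.35 and -4.32, and in none of these 4 was the interaction called. Among interferon-stimulated genes, by contrast, the interaction was called for 27 of 33, 26 of them with a larger Tr1 excess among positive cells, whose list median was 3.28 against 1.51. Usp18, for example, stood at 51.1 to 61.2 CPM in negative and 40.6 to 47.2 CPM in positive Tr1 cells, but at 3.80 to 4.80 CPM in negative and 0.0934 to 0.0970 CPM in positive Th17 cells. Usp18 thus differed between the compartments mainly in Th17. In positive Th17 libraries Ifit1, Ifit3 and Rtp4 were also at or below 0.194 CPM. The positive fold changes and interactions of these genes and of Usp18 therefore rest on few counts and are no exact sizes. Gbp6 differed on both sides, from 467 to 518 CPM in negative to 820 to 835 CPM in positive Tr1 cells and from 6.39 to 11.1 CPM to 1.21 to 1.55 CPM in Th17 cells (interaction -3.27; edgeR, adjusted p = 5.24e-12).

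For glycolysis and ribosome biogenesis genes the list medians lay nearer 0 in negative than in positive cells, at -0.34 against -1.11 and -0.22 against -0.99. The interaction was called above 0 for 19 of 21 and 17 of 20 of them and below 0 for 0. Positive Tr1 cells had 19 of 21 and 20 of 20 lower, against 4016 of all 12611 genes. Single glycolysis genes were farther apart in negative cells, Pdk1 at 1.35 against -0.03 and Aldoc, an aldolase, at 0.99 against -0.50. Cell cycle genes were lower in Tr1 in 34 of 35 in either compartment, with medians of -2.01 and -1.95, and the interaction was called for 20 of 35, 11 above and 9 below 0. Mcm3 and Mcm6, parts of the helicase that unwinds DNA, were nearer in negative cells (-1.15 against -2.89 and -1.19 against -2.36), and Ccna2 and Ccnb2 were farther apart (-3.85 against -2.03 and -3.66 against -1.01); Mcm3 and Mcm6 were named after their values were seen. Of Rora, Ahr and Maf, the first pair differed less between cultures in negative cells (interaction 2.36 and 2.27) and Maf differed more (-1.49). A few genes turned round. Serpinb5, a serpin, stood at 1.62 to 2.27 CPM in Tr1 and 20.1 to 32.1 CPM in Th17 negative cells (-3.71 ± 0.20), but at 37.7 to 43.5 and 2.81 to 4.48 CPM in positive cells. Ggt1, which breaks down glutathione, stood at 8.52 to 10.8 and 38.2 to 43.3 CPM in negative cells (-1.99 ± 0.14) and at 40.9 to 49.2 and 1.59 to 3.01 CPM in positive cells. Sytl2, a vesicle docking protein, was low in negative cells (0 to 0.996 and 1.55 to 3.28 CPM; -1.90 ± 0.47, or -2.84 without Tr1 replicate 18) and at 26.6 to 27.4 against 0.281 to 0.841 CPM in positive cells. All 3 were thus called lower in Tr1 without IL-10 and higher in Tr1 with it.

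**Figure D5:**
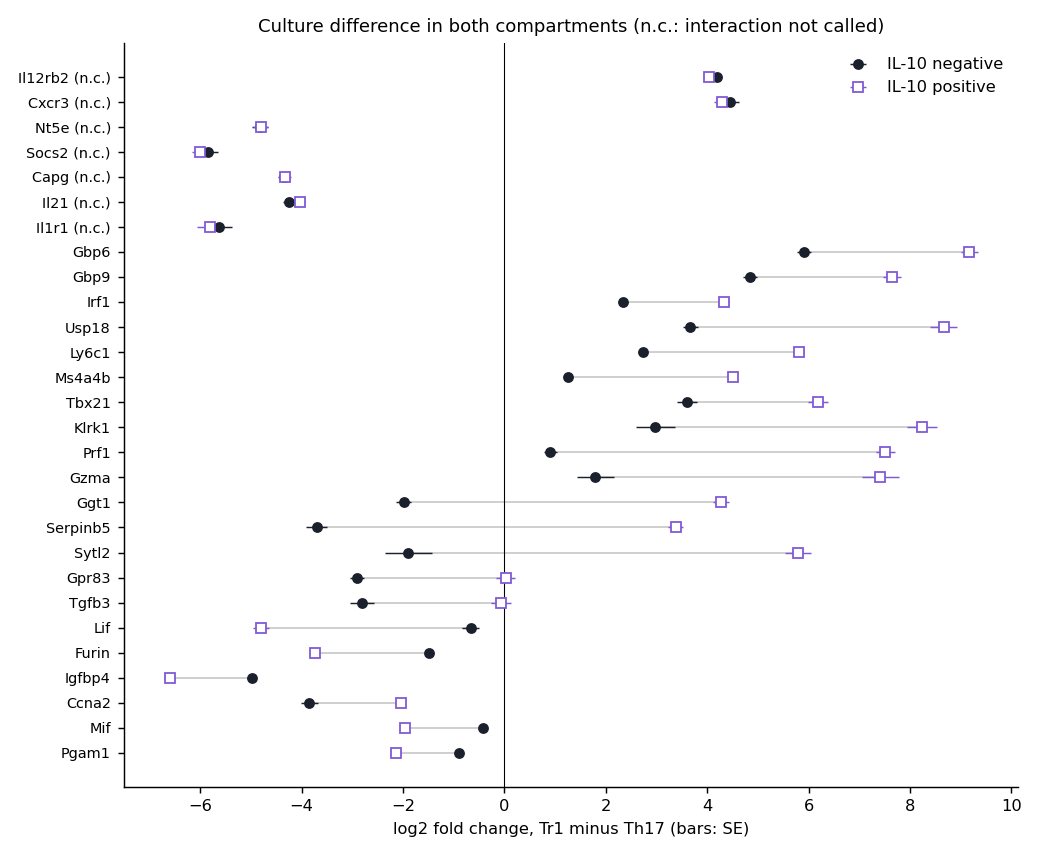
Points give the log2 fold change of Tr1 over Th17 for 28 genes in IL-10 negative (filled circles) and IL-10 positive cells (open squares), with SE bars; n.c. marks genes whose interaction was not called. Il12rb2, at 4.20 and 4.03, and the 6 other genes marked n.c. have both points close together, whereas Ggt1, Serpinb5 and Sytl2 cross 0.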

How the data were processed

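RNA of 2000 sorted cells per library was made into libraries by an adaptation of SMART-Seq2, per the labels' protocols, which keeps neither strand nor molecular identifiers, so antisense, overlapping or near-identical genes can share reads. The protocol text gives Thy1.1 positive for both compartments; the titles were followed. The authors deposited, per library, RSEM expected counts, TPM and FPKM, with gene length and effective length as another measure, per the file headers; the submitters' processing notes name RSEM and mm10, and no source used here gives the version or the aligner. TPM was used for levels between genes and FPKM not at all.

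Expected counts were rounded, filtered by filterByExpr (12611 of 23420 genes) and scaled by TMM. edgeR 4.0.16 (R 4.3.3) fitted 1 quasi-likelihood model to the 30 libraries, with 10 group means and without covariates; p-values are two-sided with Benjamini-Hochberg adjustment. SE is the size of the log2 fold change divided by the root of F. A group at 0 was set to 3 counts; with 1 to 3 counts the ratio has an exact binomial interval. Coordinates are from RefSeq for 11702 genes. The scripts were tested on simulated data.

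The members and 35 gene lists were chosen with earlier results of these data known. Named are lineage regulators; the 12 highest and 12 lowest non-overlapping genes of at least 10 CPM; up to 5 per list of at least 5 CPM; and the 6 highest and 6 lowest interactions. Gm, LOC and Rik genes were not named, and a few genes that the rules pick are not reported here. Gbp2, Gbp7, Igtp, Tgtp1, Irgm1, B2m, Il27ra, Il6ra, Tyms, Cd4, Lrrc32, Smad and Mcm genes and cell type markers were named after their values were seen. So were Ifngr1, Il10ra, Il22, Il24, Batf, Ccr6, Irf2bp2, Irgm2 and Tgtp2. Alternatives were other size factors, DESeq2 1.42.0, no filter, fits of fewer libraries, thinning, each library left out and, chosen after seeing the data, counts without Rn45s.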

Additional observations from a re-analysis of the deposited data

Results flagged for a closer look

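The difference between Tr1 and Th17 was not of the same size in IL-10 negative and IL-10 positive cells for 28 of 47 genes that were lineage regulators, leaders of the comparison or leaders of the interaction (98 of all 158 named genes; 38.6% of all genes). What drew attention to each is the interaction itself, the log2 difference in negative cells minus that in positive cells, tested with edgeR; the leaders of the interaction were picked for it.

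Below 0, so that the Tr1 excess was smaller, the Tr1 deficit larger or an excess turned to a deficit without IL-10, stood the killer cell genes Prf1 (-6.61), Gzmb (-6.59) and Ccl5 (-5.79), with Sytl2 (-7.69), Serpinb5 (-7.09), S100a4 (-6.89) and Ggt1 (-6.26). Prf1, at 18.1 to 23.05 CPM in negative Tr1, reached 74.0 to 80.3 CPM in positive Tr1 and was at or below 0.468 CPM in positive Th17. The interferon-linked genes Gbp10 (-5.01), Ly6c2 (-4.12), Gbp6 (-3.27), Gbp9 (-2.80) and Iigp1 (-2.35) followed, with Tm6sf1 (-3.26) and Plac8 (-2.32). Of the regulators, Tbx21 (-2.58), Prdm1 (-2.51), Maf (-1.49), Gata3 (-0.86) and Stat3 (-0.28) were in this group, and so was Il10 (-2.67), which sets the compartments apart by design.

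Above 0 stood Tmem254c (11.89), Apol7b (7.93), Lif (4.14), Abcb6 (3.83), Ldhd (3.55), Prss12 (3.32), Rora (2.36) and Ahr (2.27). Lif, a cytokine of the IL-6 family, was at 7.11 to 16.1 CPM in Tr1 and 14.5 to 19.7 CPM in Th17 negative cells, but at 4.01 to 5.61 and 132 to 141 CPM in positive cells. Apol7b and Tmem254c were at 0 in each positive Tr1 library and Gbp10 in each positive Th17 library, where Tm6sf1 was at 0 to 0.0935 CPM, and Ly6c2 and S100a4 at 0 to 0.187 CPM, so their fitted values are no measure of size, and Tmem254c varied from 0 to 15.1 CPM among negative Tr1 replicates. The fitted value of Gzmb is no measure of size either (interaction SE 2.24). Gzmb had 2 counts in all in negative Th17 and 0.0935 to 0.291 CPM in positive Th17.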

How the results depend on the processing

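The count of called genes, 4967, was 4993 with median-of-ratios size factors, 4749 with DESeq2, 4693 without the filter on low counts (1944 higher and 2749 lower), 4382 in a fit of the 6 libraries (2187 higher and 2195 lower, where the excess of lower calls is nearly gone), 4627 after thinning to 1 depth, 4972 without Rn45s and 4416 to 4487 with 1 library left out. DESeq2 shared 4690 calls with edgeR. The interaction count, 4863, was 4254 after thinning and 4963 without the filter, and from 4413 to 4797 with 1 library left out. Of 158 named genes under 12 alternatives, 1858 values kept direction and side of the threshold, 24 lost the call, 1 gained it and 5 turned. Those that turned were uncalled: S100a4 (0.19 after thinning, 1.04 without Th17 replicate 10, 0.25 without Tr1 replicate 17, 0.46 without Tr1 replicate 18) and Tmem254c (-0.99 without Tr1 replicate 17); the cause was not tested. With 1 library left out S100a4 ran from -3.85 to 1.04 and Tmem254c from -0.99 to 5.85. Fitted values of genes with 1 to 3 counts in a group depended on the library with those counts: Cyp1a1 -10.10 and Mgll -11.40 without Tr1 replicate 18, Bub1 -8.54, Cyp1b1 -9.66, Rbpms2 -9.57 and Fst -9.68 without Tr1 replicate 16, and Gzmb 7.21 without Th17 replicate 10. Without Tr1 replicate 18, 1 hypoxia-induced gene in place of 2 was higher and 0 B cell markers in place of 1.

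Tr1 and Th17 share no replicate numbers, so their comparison has no pairing. For the interaction, numbers join the compartments, but libraries with the same number correlated at -0.05 to 0.03 in their deviations from the group means and only 2 of 6 numbers matched best with themselves; a fit of 12 libraries with the number as a replicate block called 4245 (2188 above and 2057 below 0), against 4397 without it (2228 and 2169), so that the excess below 0 turned in both, as it did without the filter (2615 and 2348). Genes near 1 CPM rest on a few counts per library, and for these a difference was not detectable at this depth unless large.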
